A study of Homo sapiens with 9 samples.

Results

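The replication-dependent histone genes were examined in K562 cells, a human erythroleukaemia line, after knockdown of DHX34 or UPF1. Members were all protein-coding genes whose current symbol starts with H2AC, H2BC, H3C or H4C, the linker histone genes H1-1 to H1-6, and 2 genes (H3-4 and H3-7) that qualify through an older HIST symbol. The rule gave 71 genes of the 58214 with a transcript in the tables, namely 6 of the H1 family, 17 of H2A, 19 of H2B, 14 of H3 and 15 of H4. H3C15 also fits the rule but was not analysed here. Together the 71 genes had 98 of the 203027 transcripts quantified.

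The cells were transfected with a non-targeting siRNA (SCR) or with siRNA against DHX34 or UPF1 and harvested on day 4, with 3 libraries in each of the 3 groups. The study's methods describe the replicates as biological. P-values measure the spread between these libraries, and in bulk RNA fewer cells with a transcript and less RNA per cell cannot be told apart. DHX34 fell from 73.7 ± 1.11 to 31.4 ± 2.32 CPM (counts scaled to library size by TMM factors) after DHX34 siRNA (SD, n = 3), and UPF1 from 262 ± 8.13 to 106 ± 1.47 CPM after UPF1 siRNA, with adjusted p = 3.33e-07 and 2.41e-10 by edgeR. Libraries held 73478797 to 103625443 expected counts, of which the 71 genes took 0.186% to 0.223%. All 10 erythroid markers checked were present, and of 7 epithelial markers only EPCAM reached 1 TPM (a level per length and library size). The summed TPM of the 10 erythroid markers was 26238 in SCR, 24814 after DHX34 siRNA and 16098 after UPF1 siRNA, and its part in the histone results was not tested.

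Replication-dependent histone genes supply the nucleosome proteins (H2A, H2B, H3 and H4) and linker histone H1 while DNA is copied in S phase. Their mRNAs are unusual in that most have no introns and end in a conserved stem-loop instead of a poly(A) tail. The stem-loop binds SLBP, which serves processing, translation and stability, and UPF1 takes part in the rapid decay of these mRNAs when DNA synthesis stops. DHX34 is an RNA helicase that acts in nonsense-mediated decay (NMD), in which UPF1 is the central factor. The libraries here were poly(A)-selected, so mRNAs that end in the stem-loop were largely not captured. All levels below are therefore those of the polyadenylated or carried-over fraction of histone RNA, and total histone mRNA was not measured.

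The stem-loop is the sequence that separates these mRNAs from others and is the element through which UPF1 is known to reach them, so its forms are shown. It was searched as a stem of 6 base pairs and a loop of 4 bases within 100 bases of genome after the stop codon (GRCh38), with the pattern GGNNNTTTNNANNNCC and arms that pair, G-T pairs allowed. It was found in 67 of 71 members (94.4%) and in 6 other protein-coding genes, 0.0302% of those, among them H2AX and the copy H3C15. Capitals mark the stem and lower case the loop, written as DNA on the coding strand.
Most frequent form, 40 members: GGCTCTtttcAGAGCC
Second form, 10 members: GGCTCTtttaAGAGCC
Form of 10 H4 genes: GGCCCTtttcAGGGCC
Form of 4 H4 genes: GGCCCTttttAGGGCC
H2AC11: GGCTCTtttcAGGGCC
H2AC20: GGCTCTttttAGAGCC
H2AC15: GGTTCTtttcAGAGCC

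All 14 H4 genes with a stem-loop had one of the 2 forms with GGCCCT in the 5′ arm, and no gene of another family had either. The stem-loop began 23 to 68 bases after the stop codon, with a median of 36. In H1-2 it lies at chr6:26055744-26055759 on the minus strand, in the 3′UTR and 28 bases after the stop codon. In H2AC18 (chr1:149842223-149842238, minus strand) and H2AC19 (chr1:149851574-149851589, plus strand) it has the same most frequent form at the same distance of 68 bases. In H2BC15 it lies at chr6:27839090-27839105 on the plus strand, and in H4C14 at chr1:149833032-149833047 on the plus strand with a loop of T only. It was not found in H2BC10, H2BC12L, H3C6 and H4C13. A missing match says only that these letters were not in this window.

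Members also shared features of their promoters that the rule did not use. In windows of 250 bases before to 50 after the start, taken from RefSeq for 69 members, TATAAA occurred on either strand in 66.7% (11.5% of all 35116 promoters), CCAAT in 85.5% (34.6%) and ATTTGCAT, the octamer motif of histone H2B promoters, in 39.1% (1.8%). Neighbours that start close together on opposite strands have overlapping windows, so the same site can count for both. The shares are thus not over separate promoters. The genes stood mainly on 2 chromosomes, with 55 members on chromosome 6 and 14 on chromosome 1. Coding regions of equal length were 85.2% identical at the median within H2A and within H3 and 83.7% within H4. This matters for counting, since reads of near-identical copies cannot be placed with certainty.

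Levels were very uneven across the genes. On the TPM scale, which allows for length, H1-2 stood at 2027, H2BC12L at 1792, H2BC12 at 1780, H2BC11 at 290 and H2AC18 at 207 as means over 9 libraries. H1-2 is a linker histone, H2BC12 and H2BC12L encode nearly the same H2B, and H2BC11 is another H2B gene. The SCR levels of H2BC12 (1656 ± 19.6 TPM) and H2BC12L (1638 ± 8.36 TPM, SD, n = 3) differed by less than the SD of H2BC12. In CPM, which does not allow for length, they were apart, at 226 ± 1.43 and 359 ± 7.74 in SCR. Only 29.0% and 1.6% of their words of 31 bases are in no other gene, so the split of reads between them is uncertain. H3C10 was the highest H3 gene at 41.4 TPM and H4C14 the highest H4 gene at 89.2 TPM. At the other end, 25 members were above 0 but averaged under 1 CPM and 9 (H2AC15, H2BC10, H3C4, H3C11, H4C6, H4C7, H4C12, H4C13 and H4C16) had no count in any library, which allows up to 3 reads per library by counting error. For H3C4 and H4C12 this limit does not hold, since 3.4% and 7.0% of their words of 31 bases are in no other gene. Their reads could have been assigned to another gene. Of 503 exon bases of H3C4, 486 lie in exons of a protein-coding gene on the same strand (ENSG00000282988).

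**Figure D1:**
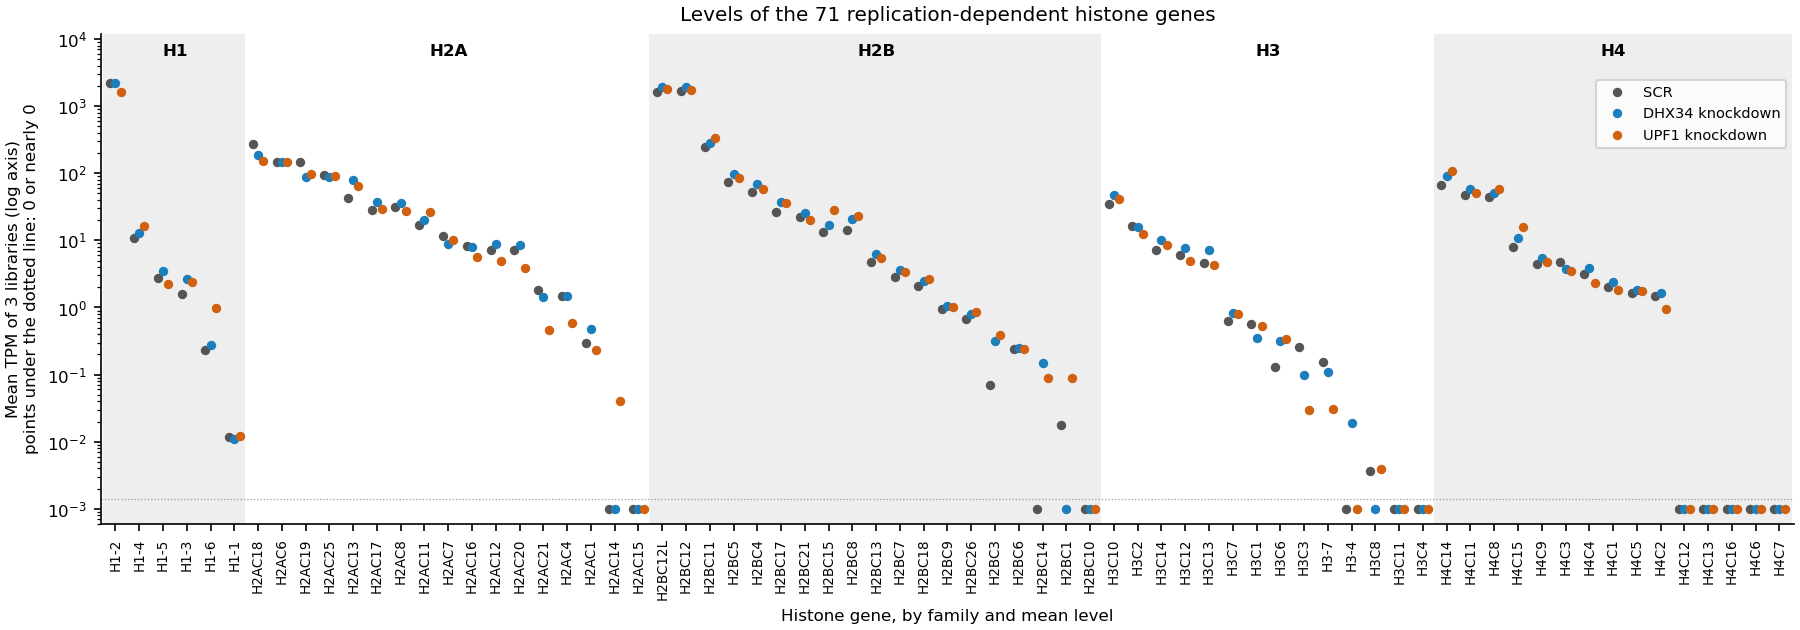
Mean level of each of the 71 histone genes in TPM on a log axis, by family and ordered by mean level, with 1 point for each group of 3 libraries (SCR, DHX34 knockdown, UPF1 knockdown). H1-2, H2BC12L and H2BC12 stood between 1638 and 2190 TPM in SCR, and points under the dotted line are at 0 or nearly so.

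The transcript models behind these levels were of several kinds. Of the 98 deposited transcripts, 35 covered the coding region only, with no UTR, and 15 were over 100 bases longer than the same transcript in GENCODE release 44. A further 27 were spliced or not coding, and among them 9 carried the NMD biotype, in 6 genes (H2AC6, H2BC15, H4C8, H4C14, H4C15 and H4C16). A coding-only model, such as that of H1-2 (642 bases) or H2BC12 (381 bases), counts no read in the UTRs, and its TPM depends strongly on the fragment length. Mean fragment length was 255 bases in each SCR library, 259 or 260 after DHX34 siRNA and 252 to 257 after UPF1 siRNA. Its part in the TPM values was not tested.

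Summed over families, the polyadenylated RNA of H1 and H2A was lower and that of H4 higher in the UPF1 knockdown than in SCR. Summed H1 was 903 ± 34.5 CPM in SCR, 837 ± 42.9 after DHX34 siRNA and 591 ± 16.1 after UPF1 siRNA (SD, n = 3). This was nearly all H1-2, since the other 5 H1 genes summed to 7.81 ± 0.309, 8.76 ± 1.02 and 10.0 ± 0.12 CPM. Summed H2A was 449 ± 11 CPM in SCR, 371 ± 23.5 after DHX34 siRNA and 363 ± 2.7 after UPF1 siRNA, so both knockdowns lay below SCR without overlap. Much of this fall lay in the pair H2AC18 and H2AC19, which together stood at 137 ± 4.8, 79.3 ± 5.1 and 72.4 ± 0.933 CPM in the 3 groups. Summed H2B was 787 ± 6.43, 823 ± 32.5 and 790 ± 26.6 CPM, and libraries of the 3 groups overlapped. Summed H3 was higher after DHX34 siRNA, at 62.3 ± 2.15 CPM, than in SCR (51.5 ± 1.77) or the UPF1 knockdown (51.4 ± 0.271). Summed H4 was 86.1 ± 1.78 CPM in SCR, 95.5 ± 2.62 after DHX34 siRNA and 112 ± 4.37 after UPF1 siRNA, with no overlap between groups.

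All 71 genes together stood at 2277 ± 53.6 CPM in SCR, 2188 ± 102 after DHX34 siRNA and 1908 ± 48.4 after UPF1 siRNA (SD, n = 3). Without H1-2 the sums were 1381 ± 19.7, 1360 ± 60.2 and 1327 ± 32.4 CPM. These sums are descriptions without a test, and several depend on the scale. Summed as TPM, the log2 ratio of the UPF1 knockdown to SCR over all members was -0.04 in place of -0.26, and that of H1 after DHX34 siRNA turned from -0.11 to 0.04. The H4 and H3 sums in the DHX34 knockdown and the H4 sum after UPF1 siRNA were above SCR on both scales, and the H1 sum after UPF1 siRNA and both H2A sums were below it.

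**Figure D2:**
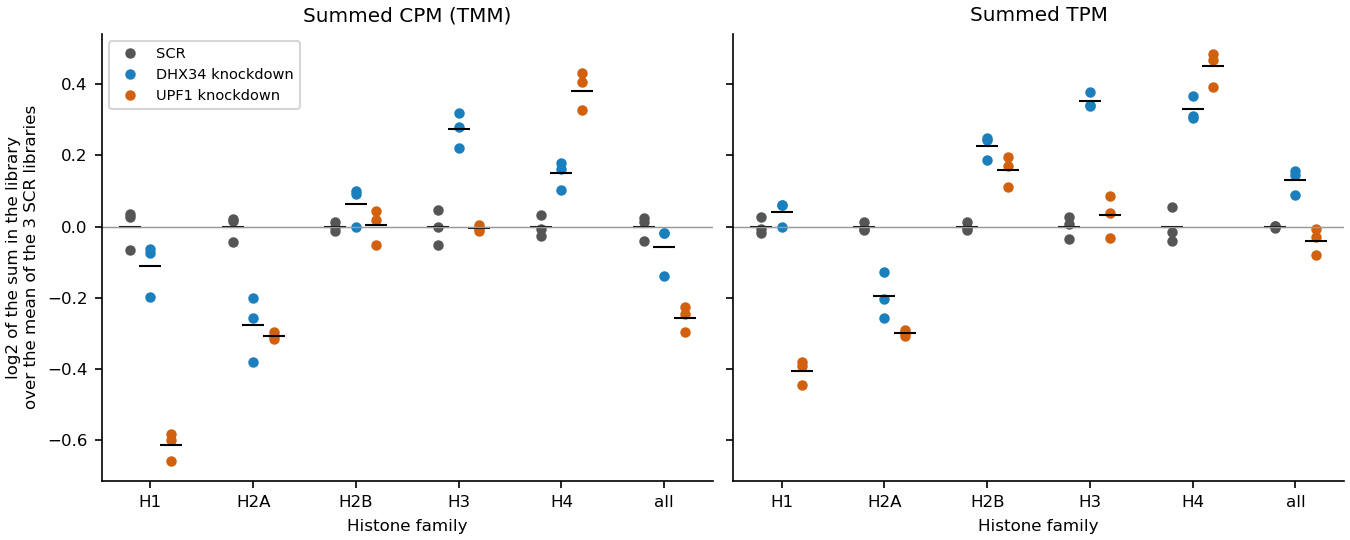
Summed level of each histone family and of all 71 genes in every library, as log2 over the mean of the 3 SCR libraries, in CPM (left) and TPM (right). Points are libraries and black bars are group means. H1 and H2A after UPF1 siRNA lie below SCR and H4 above it in both panels, while H2B moves with the scale.

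To ask which single genes responded, each pair of groups was compared with edgeR's quasi-likelihood test over all genes, and a call needed a p of 0.005 or lower after Benjamini-Hochberg adjustment. A filter on low counts left 50 members in each comparison with SCR and 49 in the comparison of the knockdowns, and 21 members were tested in none. After UPF1 siRNA 15 of 50 members were called, 9 higher and 6 lower than SCR, against 25.3% of all 17184 genes tested (12.4% higher, 12.9% lower). After DHX34 siRNA 5 of 50 were called, 4 higher and 1 lower, against 10.4% of 17004 genes (5.54% higher, 4.86% lower). Replicate 3 of the DHX34 knockdown diverged from replicates 1 and 2 over all genes (chi-square per degree of freedom 22.4 and 20.2). Other pairs of libraries within a group were at 5.71 to 9.59. Without that replicate 10.3% of all genes were called after DHX34 siRNA, and without any other single library 4.48% to 6.6%. Between the knockdowns 12 of 49 were called, 4 higher and 8 lower with UPF1 siRNA, against 17.4% of 17435 genes (9.89% higher, 7.47% lower). At an adjusted p of 0.05, 23 of 50, 9 of 50 and 20 of 49 members passed in these comparisons, beside 40.3%, 25.9% and 32.6% of all genes. The shares of members called, 30.0%, 10.0% and 24.5%, were thus near the background or somewhat above it.

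The calls fell mainly on the members of higher level. Among the 23 members with a mean of at least 5 CPM, 15 were called after UPF1 siRNA against SCR, beside 39.4% of all genes at that level. After DHX34 siRNA 5 of these 23 were called beside 16%, and between the knockdowns 11 beside 25.8%. The 4 genes of the 23 that were called nowhere were H2AC19, H2BC12, H2BC12L and H4C11. Groups did not overlap for 28 of 50 members after UPF1 siRNA (50.6% of all genes), for 12 of 50 after DHX34 siRNA (41.4%) and for 26 of 49 between the knockdowns (45.9%). The median log2 fold change over the members tested was -0.10, 0.08 and -0.18 in these comparisons, beside 0.02, 0.02 and 0.01 over all genes.

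**Figure D3:**
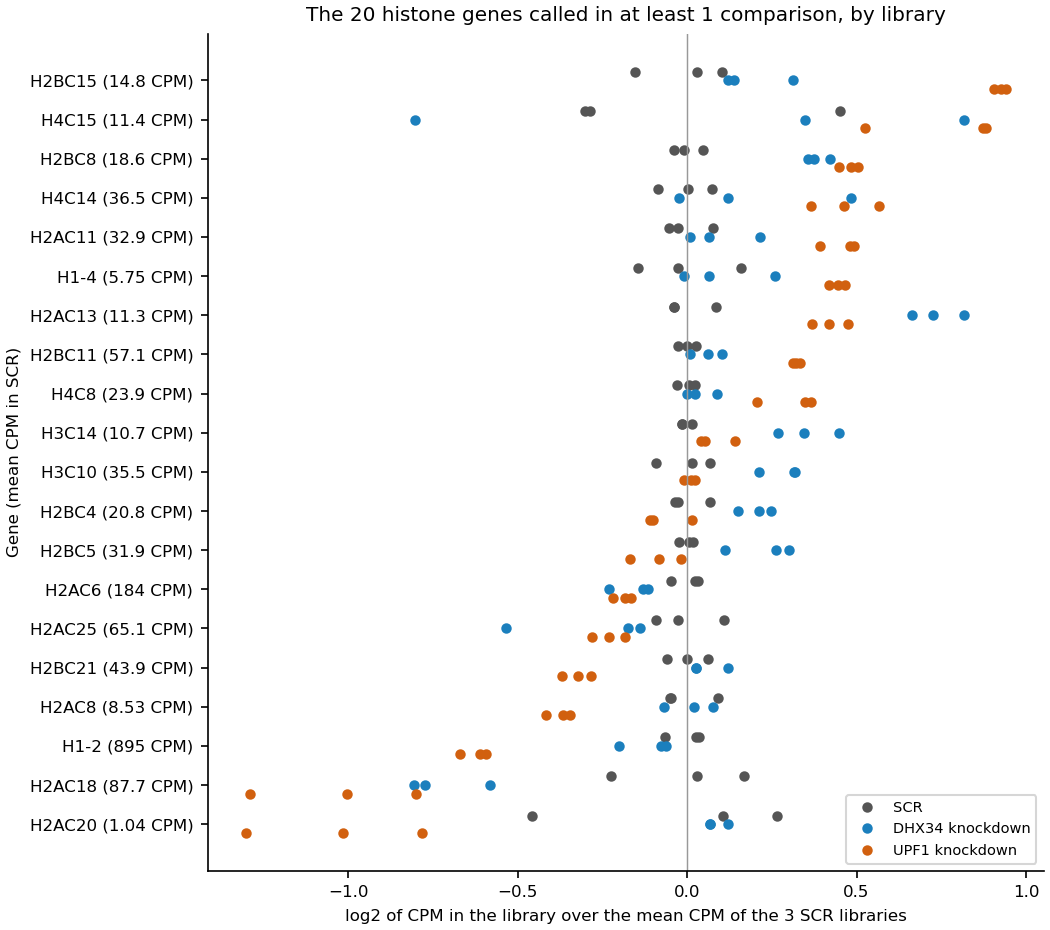
CPM of each library for the 20 histone genes called in at least 1 comparison, as log2 over the mean of the 3 SCR libraries, with that mean beside the symbol. H2BC15 stands apart on the high side and H1-2 on the low side after UPF1 siRNA, while H2AC18 is low and H2BC8 and H2AC13 are high in both knockdowns.

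Among linker histones H1-2 fell with UPF1 siRNA. H1-2 (ENSG00000187837, chr6:26055740-26056470, minus strand, GRCh38, a gene of 1 exon) was at 918, 856 and 912 CPM in SCR, 857, 848 and 779 after DHX34 siRNA and 586, 593 and 563 after UPF1 siRNA. All 3 UPF1 knockdown libraries were thus below all others. The log2 fold change of H1-2 was -0.63 (SE 0.031, adjusted p = 4.54e-08) against SCR and -0.50 (SE 0.041, adjusted p = 6.18e-06) against the DHX34 knockdown. After DHX34 siRNA the log2 fold change was -0.11 (SE 0.049, adjusted p = 0.123), which did not pass. Of the H1-2 sequence 99.3% is in no other gene, counted in words of 31 bases, so few reads can be shared. H1-2 was called in every alternative fit of both comparisons with the UPF1 knockdown.

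H1-4, another linker histone gene, moved the other way at a far lower count. Its levels were 5.64, 5.20 and 6.42 CPM in SCR and 7.95, 7.83 and 7.68 after UPF1 siRNA, with a log2 fold change of 0.43 (SE 0.091, adjusted p = 0.0022). The call for H1-4 was lost without any library but SCR replicate 3 and when the trend of fold change with gene length was removed (log2 fold change 0.32, adjusted p = 0.0132). H1-6, the testis-type linker histone, was under 1 CPM in every library, with a log2 fold change of 1.78 after UPF1 siRNA (SE 0.50) that did not pass (adjusted p = 0.0133).

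Among H2A genes the clearest fall was that of the copies H2AC18 and H2AC19, which encode the same H2A protein from chromosome 1. Their coding regions are identical over 393 bases, and at most 0.2% of their words of 31 bases are found in no other gene, so the split of reads between them is uncertain. Summed, the pair was at 135, 134 and 142 CPM in SCR, 79.7, 84.2 and 74.1 after DHX34 siRNA and 72.8, 73.1 and 71.3 after UPF1 siRNA. Both knockdowns were far below SCR, and the spread of the sum was small where that of each copy was large. Fitted as 1 feature, a choice made after seeing the data, the pair had a log2 fold change of -0.78 (SE 0.051, adjusted p = 4.26e-06) after DHX34 siRNA and -0.92 (SE 0.033, adjusted p = 2.36e-09) after UPF1 siRNA. Between the knockdowns the difference was -0.12 (SE 0.045, adjusted p = 0.0648), with no overlap of libraries. Fitted alone, H2AC18 was called in both knockdowns (log2 fold changes -0.71 and -1.02) and H2AC19 in neither (-0.92 with SE 0.21, and -0.77 with SE 0.20). The H2AC18 call in the DHX34 knockdown was not made by limma on TPM.

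The H4 genes H4C14 and H4C15 are likewise identical over 312 coding bases, but this pair rose after UPF1 siRNA. Summed, it was at 49.9, 47.7 and 45.9 CPM in SCR, 56.0, 57.5 and 54.2 after DHX34 siRNA and 70.4, 71.2 and 68.0 after UPF1 siRNA. The 3 groups were in order without overlap. The log2 fold change of the summed pair was 0.54 (SE 0.041, adjusted p = 1.13e-06) after UPF1 siRNA against SCR and 0.33 (SE 0.037, adjusted p = 5.82e-05) against the DHX34 knockdown. After DHX34 siRNA against SCR it was 0.23 (SE 0.048, adjusted p = 0.0056), just outside the threshold. Fitted alone, H4C14 and H4C15 were both called in the UPF1 knockdown against SCR (log2 fold changes 0.46 and 0.77), the latter not by DESeq2 and not without replicate 2 or 3 of either group. H2BC12 and H2BC12L, 99.0% identical over 381 coding bases, showed no call as a sum, with a log2 fold change of 0.04 (SE 0.044) after DHX34 siRNA and -0.06 (SE 0.031) after UPF1 siRNA.

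**Figure D4:**
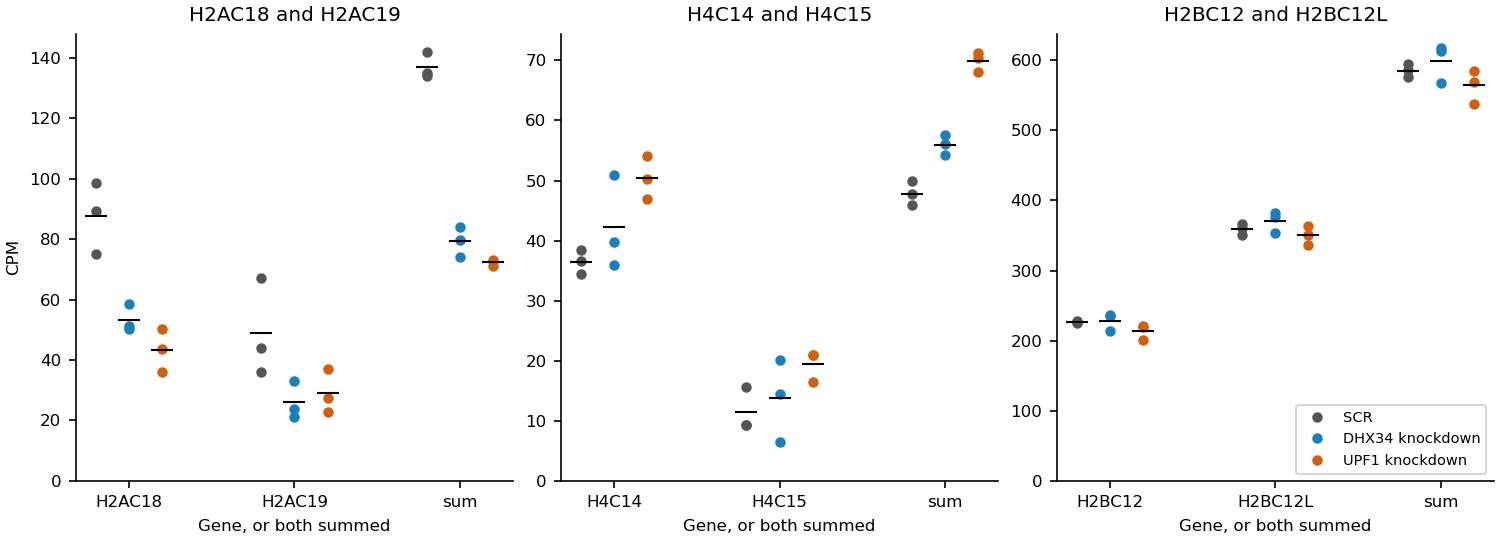
CPM of 3 pairs of near-identical histone genes in every library, for each copy and for their sum, with black bars at group means. The sum of H2AC18 and H2AC19 separates SCR from both knockdowns with little spread, that of H4C14 and H4C15 orders all 3 groups, and that of H2BC12 and H2BC12L overlaps.

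Other H2A genes moved in both directions. H2AC13 was at 11, 11 and 12 CPM in SCR, 17.9, 19.9 and 18.7 after DHX34 siRNA and 15.7, 15.1 and 14.6 after UPF1 siRNA. The 3 groups did not overlap and the DHX34 knockdown was highest, and H2AC13 was the only member called in all 3 comparisons. Its log2 fold change was 0.73 (SE 0.067, adjusted p = 4.15e-05) after DHX34 siRNA, 0.41 (SE 0.061, adjusted p = 0.000191) after UPF1 siRNA and -0.30 (SE 0.06, adjusted p = 0.00297) between them. The last call was lost without replicate 2 of the DHX34 knockdown or any replicate of the UPF1 knockdown. Only 35.1% of its words of 31 bases are in no other gene, so reads of related H2A genes could have been counted there.

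H2AC11 was at 34.7, 32.3 and 31.7 CPM in SCR, 34.4, 38.2 and 33.1 after DHX34 siRNA and 43.2, 46.3 and 45.9 after UPF1 siRNA. Its UPF1 knockdown libraries were above all others, with a log2 fold change of 0.45 (SE 0.047, adjusted p = 1.25e-05) against SCR and 0.37 (SE 0.055, adjusted p = 0.000442) against the DHX34 knockdown. H2AC11 is also the only member whose stem-loop, shown above, joins the 5′ arm GGCTCT to the 3′ arm AGGGCC of the H4 genes. H2AC8 fell from 8.53 ± 0.483 to 6.58 ± 0.165 CPM (log2 fold change -0.38, SE 0.078, adjusted p = 0.00203), and the 2 abundant genes H2AC6 and H2AC25 fell by 0.20 and 0.23 on the log2 scale. Against the DHX34 knockdown H2AC8 was also called (-0.38, SE 0.076, adjusted p = 0.00318), which was lost without any library but DHX34 knockdown replicate 3. The H2AC8 call against SCR was lost without SCR replicate 1 or any replicate of the UPF1 knockdown, and the H2AC25 call without any library but SCR replicate 3. For H2AC6 the limma fits on TPM gave a log2 fold change of 0.00, and for H2AC25 a call in none of them. H2AC20, a gene near 1 CPM, was lower after UPF1 than after DHX34 siRNA (log2 fold change -1.10, SE 0.23, adjusted p = 0.00381), and this call was lost without any 1 of the 6 libraries.

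The largest rise of any H2B gene was that of H2BC15. H2BC15 (ENSG00000233822, chr6:27838545-27855709, plus strand) was at 15.9, 13.3 and 15.1 CPM in SCR, 18.4, 16.1 and 16.3 after DHX34 siRNA and 28.4, 27.7 and 28.1 after UPF1 siRNA. The UPF1 knockdown libraries were far above the other 6, which lay close together. The log2 fold change was 0.92 (SE 0.061, adjusted p = 4.24e-07) against SCR and 0.74 (SE 0.059, adjusted p = 4.94e-06) against the DHX34 knockdown, and both held in every alternative fit. After DHX34 siRNA it was 0.20 (SE 0.081, adjusted p = 0.0948).

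H2BC8 was at 19.2, 18.5 and 18.1 CPM in SCR, 23.8, 24.9 and 24.1 after DHX34 siRNA and 25.4, 26.0 and 26.4 after UPF1 siRNA. Both knockdowns were above SCR, with log2 fold changes of 0.39 (SE 0.053, adjusted p = 0.000461) and 0.48 (SE 0.047, adjusted p = 9.28e-06), while the difference between the knockdowns did not pass (0.11, SE 0.046, adjusted p = 0.101). With the length trend removed the value for the DHX34 knockdown was 0.28 with an adjusted p of 0.00542, just outside the threshold. H2BC11 was at 56.1, 58.1 and 57.1 CPM in SCR, 61.3, 59.6 and 57.4 after DHX34 siRNA and 71.4, 72.0 and 70.9 after UPF1 siRNA. Its log2 fold change was 0.32 (SE 0.033, adjusted p = 1.35e-05) against SCR and 0.28 (SE 0.036, adjusted p = 0.000171) against the DHX34 knockdown.

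H2BC21 went down, from 42.1, 45.8 and 43.9 CPM in SCR and 44.7, 47.7 and 44.7 after DHX34 siRNA to 36.1, 35.1 and 34.0 after UPF1 siRNA. Its log2 fold change was -0.33 (SE 0.044, adjusted p = 8.33e-05) against SCR and -0.37 (SE 0.043, adjusted p = 7.76e-05) against the DHX34 knockdown. The call against SCR was not made by limma on TPM. H2BC4 and H2BC5 were called between the knockdowns alone, with log2 fold changes of -0.26 and -0.31 for the UPF1 against the DHX34 knockdown. The H2BC4 call was kept without DHX34 knockdown replicate 3 alone, and the H2BC5 call without that library or UPF1 knockdown replicate 2. Part of the exons of H2BC4 overlaps HFE on the opposite strand, and whether the counting used strand is not given in the sources used here.

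The H3 genes called were H3C10 and H3C14, both higher after DHX34 siRNA. H3C10 was at 37.2, 33.3 and 35.9 CPM in SCR, 44.2, 44.3 and 41.1 after DHX34 siRNA and 36.1, 35.8 and 35.3 after UPF1 siRNA. Only the DHX34 knockdown libraries stood apart, with a log2 fold change of 0.29 (SE 0.054, adjusted p = 0.00326) against SCR and of -0.26 (SE 0.042, adjusted p = 0.000744) for the UPF1 against the DHX34 knockdown. The latter call was lost without replicate 1 of the DHX34 knockdown or replicate 2 or 3 of the UPF1 knockdown. H3C14 went from 10.7 ± 0.122 CPM in SCR to 13.7 ± 0.846 after DHX34 siRNA (log2 fold change 0.36, SE 0.071, adjusted p = 0.00372). In its GENCODE sequence of 522 bases, 0.8% of the words of 31 bases are in no other gene. The deposited model has 1656 bases, and the rest of it was not scored. Reads of other copies, H3C15 among them, could have been counted under H3C14, so its level and call may not be those of 1 gene. Both calls against SCR were lost without any library but DHX34 knockdown replicate 3, and with the length trend removed.

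Of the 10 H4 genes tested, H4C8 rose along with the pair described above. It was at 24.0, 23.4 and 24.3 CPM in SCR, 24.3, 25.4 and 23.9 after DHX34 siRNA and 30.8, 30.4 and 27.6 after UPF1 siRNA. SCR and the DHX34 knockdown overlapped and the UPF1 knockdown lay above both, with log2 fold changes of 0.30 (SE 0.05, adjusted p = 0.00045) and 0.28 (SE 0.054, adjusted p = 0.00232). With the length trend removed, the value against SCR was 0.18 and the call was lost (adjusted p = 0.00949). Of 2163 exon bases of H4C8, 287 overlap a long noncoding RNA gene on the opposite strand, so the limit on strand given for H2BC4 holds here too. The call against the DHX34 knockdown was lost without replicate 1 or 3 of the DHX34 knockdown or replicate 1 or 2 of the UPF1 knockdown.

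Members with a spliced transcript in the tables accounted for 5 of the 9 rises after UPF1 siRNA. Of 12 such genes tested, 5 were called up and 1 down, beside 12.4% and 12.9% of all genes, with a median log2 fold change of 0.21. Of the 16 genes tested whose only models cover the coding region, only H1-2 was called, lower, and 14 of 16 fold changes were below 0 with a median of -0.53. Apart from H1-2 and H2BC12, these coding-only genes averaged under 5 CPM in every group. Their SCR means ran from 0.147 CPM for H4C1 (SE 0.53) to 4.34 CPM for H2AC17 (SE 0.12), and the part of low counts in the calls was not tested. These counts are descriptions without a test. Of the 5 genes tested that have an NMD-biotype transcript, H2BC15, H4C8, H4C14 and H4C15 rose and H2AC6 fell, beside 25.3% of all genes called and 39.4% of those with at least 5 CPM. H4C14 and H4C15 share nearly all their GENCODE sequence, so their rises may not be separate, here or among the 5 genes with a spliced transcript. After DHX34 siRNA the medians of the spliced and coding-only kinds were 0.20 and 0.05.

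**Figure D5:**
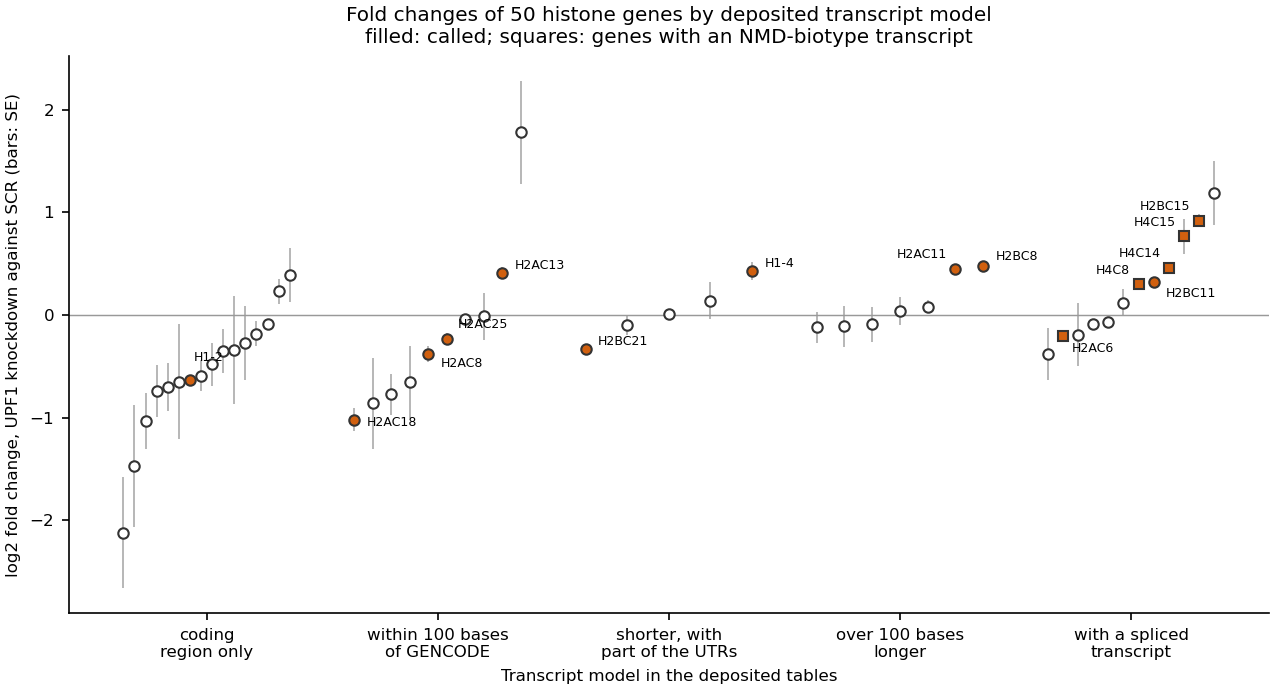
log2 fold change of the 50 histone genes tested, UPF1 knockdown against SCR, by the kind of transcript model in the tables, with bars of 1 SE, filled symbols for called genes and squares for genes with an NMD-biotype transcript. Of 12 genes with a spliced transcript, 5 were called up and 1 down, and 14 of the 16 coding-only genes lie below 0. The coding-only genes other than H1-2 and H2BC12 averaged under 5 CPM, and H4C14 and H4C15 share nearly all their GENCODE sequence.

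The share of NMD-biotype transcripts in these genes was compared without a test. In H2BC15 the NMD-biotype transcript was at 4.64 ± 0.736 CPM in SCR and 8.64 ± 0.504 with UPF1 siRNA (SD, n = 3), and the other 2 transcripts summed to 10.1 ± 0.606 and 19.4 ± 0.242. The share was 31.3% ± 2.23 in SCR, 29.5% ± 2.98 after DHX34 siRNA and 30.8% ± 1.46 after UPF1 siRNA. In H4C8 the share was 86.1% ± 0.945 in SCR, 85.3% ± 2.11 after DHX34 siRNA and 87.2% ± 0.43 after UPF1 siRNA, and in H4C14 it was 56.1% ± 2.09, 49.5% ± 5.6 and 51.2% ± 1.48. The share in H2AC6 varied too widely between libraries to compare, at 50.5% ± 14.2 in SCR and 56.6% ± 12.2 after UPF1 siRNA. These shares rest on how salmon assigned reads among overlapping forms. That of H4C14 also rests on the split with H4C15, since at most 3.0% of the words in its transcripts are in no other gene.

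Fitted as single transcripts, 4 of 65 were called after UPF1 siRNA against SCR, beside 2.59% of 62497 transcripts. H1-2-201 had a log2 fold change of -0.67 (SE 0.034, adjusted p = 0.000581), H2BC15-202 one of 0.90 (SE 0.077, adjusted p = 0.00184), H4C14-201 one of 0.57 (SE 0.058, adjusted p = 0.00297) and H2BC8-201 one of 0.43 (SE 0.048, adjusted p = 0.00383). All 4 are annotated as protein-coding. The NMD-biotype form H4C8-203 was at 6.13 ± 0.133 CPM in SCR and 9.77 ± 0.149 after UPF1 siRNA, a log2 fold change of 0.62 just outside the threshold (SE 0.08, adjusted p = 0.00641). Against the DHX34 knockdown 1 of 64 transcripts, H1-2-201, was called (1.05% of 64325). After DHX34 siRNA edgeR called 0 of 65 beside 0.0463% of 60416 transcripts, with 11 at an unadjusted p under 0.05 (15.2% of all transcripts), and DESeq2 called 3. After UPF1 siRNA DESeq2 called 19, and leaving out any 1 library left 0 or 1 called by edgeR.

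Many histone genes start head to head within 500 bases of each other, and such neighbours did not always move together. By gene spans there were 13 such pairs among the members, all of an H2A and an H2B gene except H3C12 with H2BC17, which also pairs with H2AC17. The span of H3C12 reaches H2BC17 only through a spliced form, and its exons share 346 bases with H2AC17 on the same strand. The 1-exon form of H3C12, of 512 bases with the stem-loop at chr6:27890320-27890335, does not start near H2BC17. Both genes were tested in 10 of the 13 pairs. H2BC11 and H2AC11, whose starts are 248 bases apart at chr6:27132795-27133043, both rose after UPF1 siRNA. H2BC8 and H2AC8, 233 bases apart at chr6:26216688-26216921, were called in opposite directions, with log2 fold changes of 0.48 and -0.38. H2BC21 and H2AC20, 236 bases apart on chromosome 1, had log2 fold changes of -0.33 and -1.03 after UPF1 siRNA, of which the first was called. H2AC13 rose in both knockdowns while its neighbour H2BC13, 244 bases away, had log2 fold changes of 0.24 and -0.01 (SE 0.21 and 0.23) and was not called. H2BC13 was at only 1.19 ± 0.228 CPM in SCR, so a rise of its own could have been missed.

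Histone genes listed as replication-independent, most of them with polyadenylated mRNAs, were compared as a reference. Of 11 listed, 8 were tested, among them H2AX, in which the stem-loop was also found. After DHX34 siRNA 3 fell (H2AZ1, H3-3A and H3-3B), and after UPF1 siRNA 4 fell (H2AZ1, H2AZ2, MACROH2A1 and H3-3A), beside 4.86% and 12.9% of all genes called lower. All 8 were above 5 CPM, where 16% and 39.4% of genes were called in either direction. H3-3A, which encodes the variant H3.3, was at 900 ± 35.4 CPM in SCR, 766 ± 16 after DHX34 siRNA and 727 ± 23.3 after UPF1 siRNA, with log2 fold changes of -0.23 and -0.31. H3-3B, its second gene, differed between the knockdowns (0.27, SE 0.029, adjusted p = 4.15e-05) and was at 481 ± 2.66 CPM with DHX34 siRNA and 576 ± 7.62 with UPF1 siRNA. The list's median was -0.18 and -0.12 against SCR, beside 0.02 over all genes in both comparisons.

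Of 14 genes for transcription and 3′ end formation of histone mRNA, SLBP fell after UPF1 siRNA. SLBP, the stem-loop binding protein, was at 222 ± 7.86 CPM in SCR, 211 ± 6.13 after DHX34 siRNA and 186 ± 1.89 after UPF1 siRNA. Its log2 fold change was -0.26 (SE 0.03, adjusted p = 3.21e-05) against SCR and -0.17 (SE 0.032, adjusted p = 0.0021) against the DHX34 knockdown. In all, 2 of the 14 rose (ZNF473 and NCBP2) and 4 fell (SLBP, LSM10, CSTF2 and SRRT) after UPF1 siRNA, while after DHX34 siRNA NPAT rose and NCBP2 fell. All genes called made up 25.3% and 10.4% in these comparisons (39.4% and 16% of those with at least 5 CPM), which also stand beside the lists that follow. NPAT, the activator of histone gene transcription, had a log2 fold change of 0.24 (SE 0.046, adjusted p = 0.003) after DHX34 siRNA and 0.00 after UPF1 siRNA. NCBP2, of the cap-binding complex, moved in opposite directions, at 111 ± 0.919 CPM in SCR, 94.8 ± 2.52 with DHX34 siRNA and 135 ± 3.78 with UPF1 siRNA. CASP8AP2 had a log2 fold change of 0.22 in each knockdown and did not pass (adjusted p = 0.0273 and 0.00854).

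Of 12 genes for histone mRNA decay and translation, 3 rose after DHX34 siRNA (TUT4, XRN1 and DCP1A) and 2 after UPF1 siRNA (XRN1 and DCP1A), beside 5.54% and 12.4% of all genes called higher. DCP1A, a decapping factor, was at 22.9 ± 1.01, 27.4 ± 0.63 and 31.7 ± 1.38 CPM in SCR, the DHX34 knockdown and the UPF1 knockdown. XRN1, the 5′ to 3′ exonuclease, had log2 fold changes of 0.29 (SE 0.053) and 0.35 (SE 0.052) in the DHX34 and UPF1 knockdowns. ERI1, the exonuclease that trims the histone stem-loop, had log2 fold changes of -0.09 and -0.02 and was not called. Of 14 histone chaperone genes, CHAF1B fell after DHX34 siRNA, and after UPF1 siRNA NASP and RBBP4 fell and HIRA rose.

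Cell cycle genes were listed because replication-dependent histone mRNA follows S phase. Of 20 S phase and G1/S genes, 1 (TYMS) fell after DHX34 siRNA and 4 (MCM3, MCM5, PCNA and TYMS) after UPF1 siRNA, beside 4.86% and 12.9% of all genes called lower. PCNA, the replication clamp, was at 257 ± 9.21 CPM in SCR, 234 ± 6.59 after DHX34 siRNA and 211 ± 7.25 after UPF1 siRNA. Of 15 G2 and mitosis genes, 6 fell after UPF1 siRNA, among them CCNB1 and CDK1, beside 12.9% of all genes called lower, and after DHX34 siRNA BUB1 rose and KIF20A fell. Of 10 growth arrest genes, CDKN1A, the inhibitor p21, rose in both knockdowns from 4.96 ± 0.316 to 8.31 ± 0.519 and 8.08 ± 0.418 CPM. After DHX34 siRNA GADD45A and BTG1 fell as well, and after UPF1 siRNA BTG2 fell. The medians of the S phase, G2 and mitosis, and growth arrest lists after UPF1 siRNA were -0.07, -0.10 and -0.08. The part of cell cycle position in the histone levels was not tested.

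The direction of calls depended on the scale. With the length trend removed, 7 of 18 calls after UPF1 siRNA were upward in place of 9 of 15, and 1 of 3 after DHX34 siRNA in place of 4 of 5. With limma on TPM, 11 of 14 and 7 of 7 were upward. These fits moved the median of all genes to -0.15 and -0.13 with the trend removed and to 0.21 and 0.16 with TPM.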

How the data were processed

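RNA was sequenced from poly(A)-selected libraries of K562 cells, whose cell line field spells the name K652. The authors quantified reads with salmon (GC bias correction) on Ensembl release 93 transcripts of GRCh38. The deposited tables hold expected counts per transcript, which need not be whole, and TPM, which the authors' tool computed from effective length. The authors' deposited sleuth and SUPPA2 tables, which hold results of their own comparisons, were not used.

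The transcript identifiers were looked up in GENCODE 44, where 97.9% were found, and expected counts were summed per gene and rounded. edgeR's quasi-likelihood test (version 4.0.16, R 4.3.3) was run on genes and on transcripts with TMM factors and filterByExpr (minimum count 10). Each fit used 6 libraries, those of the groups compared, and calls needed a p of 0.005 or lower after Benjamini-Hochberg adjustment over all features tested. CPM used TMM-scaled library sizes. Both comparisons with SCR share its libraries, so they were not set against each other by a test. Alternatives used DESeq2 1.42.0, limma 3.58.1 on log2(TPM + 0.5) or log2(TPM + 0.1), other filters and factors, length-scaled counts, length and GC trends, a replicate block and leaving out each library. The length trend was removed by an offset. The edgeR fit was also run on simulated counts with known changes, modelled on the UPF1 knockdown against SCR only. That simulation did not cover reads shared between copies or the other comparisons. Totals of 73478797 to 103625443 counts limit counting error, and limits for genes at 0 are 3 counts and cover counting error only.

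Named genes were all members called, the highest of each family, those at 0, those with a called transcript and called genes of the lists. The members and lists were chosen with earlier results of these data known. Stem-loops and coding identity were read from GRCh38 and GENCODE, and promoters from RefSeq (GRCh38.p14).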

Additional observations from a re-analysis of the deposited data

How the results depend on the processing

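Counts of called members moved by over 1.5 times under some alternatives. For the DHX34 knockdown against SCR the count of 5 became 10 without the filter on low counts, 2 with length-scaled counts, 3 with limma on TPM without a filter, 3 with the length trend removed and 9 at an adjusted p of 0.05. The share of all genes called moved too, from 10.4% to 11.7%, 4.29%, 0.562%, 11.4% and 25.9% in the same order. For the UPF1 knockdown against SCR the 15 became 9 with length-scaled counts, 9 with limma on TPM without a filter and 23 at 0.05, with 16%, 7.33% and 40.3% of all genes in place of 25.3%, and for the UPF1 against the DHX34 knockdown the 12 became 4, 4 and 20, with 9.51%, 2.78% and 32.6% in place of 17.4%. Leaving out 1 library gave 3 to 6, 11 to 14 and 6 to 11 members. The highest counts in both comparisons with the DHX34 knockdown came without its replicate 3. Called transcripts went from 0 to 3, from 4 to 19 and from 1 to 13 with DESeq2, and leaving out 1 library gave 0, 0 to 1 and 0 to 1.

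Replicate numbers did not pair the libraries: correlations of same-numbered deviations ran from -0.0877 to 0.076. A replicate block left 4, 14 and 8 called members and 0 transcripts in the UPF1 knockdown against SCR and against the DHX34 knockdown.

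With library totals only, log2 ratios of summed levels in the DHX34 knockdown became 0.15 (H2B), 0.36 (H3), 0.23 (H4) and 0.03 (all members), and in the UPF1 knockdown -0.52 (H1), -0.21 (H2A), 0.10 (H2B), 0.10 (H3), 0.48 (H4) and -0.16 (all). Summed as TPM they became 0.04 (H1), 0.23 (H2B), 0.35 (H3), 0.33 (H4) and 0.13 (all) in the DHX34 knockdown, and -0.41 (H1), 0.16 (H2B) and -0.04 (all) in the UPF1 knockdown. The cause was not tested. Of single called members, H2AC6 in the UPF1 knockdown turned sign in the 3 limma fits, at 0.00, and the summed pairs kept their calls in every alternative run for them. Those were other size factors, the length trend, a replicate block and leaving out each library. DESeq2, length-scaled counts and limma were not run on the pairs.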
